A study of Homo sapiens with 8 samples.

Results

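Transcripts of 10 secreted cytokines and growth factors were followed in single MDA-MB-231 cells, a human triple-negative breast cancer line, with and without knockdown of ATM and with and without ionizing radiation. The 10 genes were IL6, LIF, IL11, IL24, IL1A, IL1B, IL32, CSF1, CSF2 and CSF3, out of 15041 genes listed in any of the tables. They were selected by symbol after their levels and shares of positive cells in these libraries were known. Their values are thus given as a description, and no p-value is printed for them. Where one of them is said to be called, it passed the threshold applied to all genes tested, and that too is a description. ATM is a protein kinase activated by breaks in DNA, which it signals to repair and cell cycle proteins. There were 4 groups with 2 libraries each: ATM knockdown cells given 5 Gy and cultured for a further 4 h, untreated ATM knockdown cells, wild-type (WT) cells given the same dose and time, and untreated WT cells. All were grown in the same serum-containing medium. How the knockdown was made, and whether it is a clone or a pool, was not given in the sources used here.

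These factors act between cells. IL6, LIF and IL11 signal through receptors that share the chain IL6ST, which activates JAK kinases and STAT3, and IL6 and LIF are commonly made by mesenchymal-like breast cancer cells. IL24 belongs to the family of IL20 and IL10. IL1A and IL1B bind the receptor IL1R1 and its partner IL1RAP and act through MYD88, IRAK kinases and NF-kB, which in turn drives many cytokine genes. CSF1, CSF2 and CSF3 support macrophages, mixed myeloid cells and neutrophils, and IL32 is a pro-inflammatory factor without a settled receptor.

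In outline, untreated ATM knockdown libraries held more IL6, CSF2, LIF, IL24 and IL32 transcript than untreated WT libraries. In ATM knockdown cells the mean level after irradiation was 0.120 of the untreated one for IL6 and 0.0817 of it for CSF2, against 0.950 and 2.13 in WT cells, where the CSF2 value rested on 1 cell. LIF and IL32 stayed high in irradiated ATM knockdown cells, and CSF1 was lower after irradiation in both genotypes.

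Of 378 cells picked, 363 were kept and the 15 left out were all ATM knockdown cells. Kept cells summed to between 9321268 and 24256471 counts per library. A level is given as counts per 1000000 counts of the library (CPM), and a share of cells is given after every cell was thinned at random to 69000 counts, which 330 cells reached. ATM itself was found in 30.2% to 37.5% of cells in the 4 ATM knockdown libraries and in 53.8% to 67.4% in the 4 WT libraries. Its level was 13 and 14.0 CPM in irradiated ATM knockdown libraries, 13.8 and 33.0 CPM in untreated ATM knockdown libraries, 28 and 33.2 CPM in irradiated WT libraries, and 57.9 and 31.1 CPM in untreated WT libraries. One library labelled untreated ATM knockdown, replicate 2, thus lay within the WT range by level and outside it by share of cells. Mitochondrial transcripts took 10.2% and 10.6% of summed counts in irradiated and 11.1% and 12% in untreated ATM knockdown libraries. In WT libraries they took 9.76% and 10.3% in irradiated and 9.36% and 9.63% in untreated ones. Averaged over cells, the share was 10.9% and 11.6% in irradiated and 13.5% and 15.0% in untreated ATM knockdown libraries. In WT libraries that average was 10.3% and 10.4% in irradiated and 10.4% and 10.2% in untreated ones. Untreated ATM knockdown libraries were thus highest by both measures, and the part of this in the cytokine values was not tested. All 7 markers of the line were detected in at least 1 library, although SPARC was at most 1.45 CPM. Of the 3 genes expected at or near 0, ESR1 was at 0, PGR at most 0.289 CPM and CDH1 at most 2.02 CPM. Of the leukocyte list CD3E and CD79A were at 0, PTPRC at most 1.80 CPM and LCP1 the most abundant, at 60.5 CPM in irradiated ATM knockdown replicate 2 and 5.49 to 19.2 CPM elsewhere. Of the macrophage list CD68, AIF1 and TYROBP were at 0. The 7 macrophage markers summed to between 13.5 and 20.8 CPM in irradiated ATM knockdown libraries, between 12.3 and 14.3 CPM in untreated ATM knockdown libraries, between 43.6 and 61.2 CPM in irradiated WT libraries and between 107 and 114 CPM in untreated WT libraries. The 5 fibroblast markers summed to between 9.44 and 22.0 CPM in the irradiated and 11.7 and 21.5 CPM in the untreated ATM knockdown libraries, and to at least 36.9 CPM in the irradiated and between 86.8 and 89.4 CPM in the untreated WT libraries. The 3 endothelial markers summed to at most 0.555 and 6.40 CPM in irradiated and untreated ATM knockdown libraries, and at most 4.08 and 32.1 CPM in irradiated and untreated WT libraries. The part of these markers in the cytokine values was not tested. All WT libraries carried one title suffix and all ATM knockdown libraries another, so handling and genotype cannot be told apart.

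IL6 lies at chr7:22725884-22732002 on the plus strand (GRCh38, GENCODE 29), and 2 genes on the opposite strand, AC073072.1 and STEAP1B, overlap its exons. Its level was 20.8 and 21.8 CPM in irradiated ATM knockdown libraries, 159 and 197 CPM in untreated ATM knockdown libraries, 22.2 and 73.7 CPM in irradiated WT libraries, and 50.9 and 50.2 CPM in untreated WT libraries. The untreated ATM knockdown libraries were the highest pair and overlapped no other group, and the irradiated ATM knockdown libraries were the lowest pair. The log2 change after irradiation was -3.05 (SE 0.40) in ATM knockdown cells and -0.05 (SE 0.37) in WT cells, a difference of -3.0 (SE 0.53). The irradiated WT libraries differed widely, one below and one above both untreated WT libraries, and the difference between the genotypes was -3.61 without irradiated WT replicate 1 and -1.90 without irradiated WT replicate 2.

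The share of cells with at least 1 IL6 count moved the same way in ATM knockdown cells. It was 44.2% and 32.5% in irradiated ATM knockdown libraries and 69.7% and 70.0% in untreated ATM knockdown libraries, or 58.1% and 37.2% against 73.2% and 75.0% before thinning. It was 46.2% and 52.2% in irradiated WT libraries and 58.1% and 47.8% in untreated WT libraries. Before thinning, the WT shares were 47.9% and 79.2% in irradiated and 85.4% and 81.25% in untreated libraries. Untreated WT libraries thus stood above untreated ATM knockdown libraries in IL6 share before thinning, and below them after it. The cells that did hold IL6 also held less: their median thinned count was 2 and 3 in irradiated ATM knockdown libraries and 7 and 6.5 in untreated ATM knockdown libraries. No single cell set the difference, since without the cell holding most IL6 in each library the ratio of irradiated to untreated ATM knockdown means was 0.107, against 0.120 with it.

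The 300 bases around the RefSeq start of IL6 and of 3 other members, IL11, CSF2 and IL32, are printed. IL6 and CSF2 followed a like pattern over the groups, both highest in untreated ATM knockdown libraries. Windows run from 250 bases before to 50 bases after the RefSeq start (GRCh38.p14), read 5′ to 3′ on the gene's strand, and windows were found for 7 of the 10 genes, namely IL6, IL11, IL24, IL1A, IL1B, IL32 and CSF2. The IL6 window lies at chr7:22726950-22727249 on the plus strand. Capitals mark TTGCNCAA, a C/EBP motif, at positions -155 to -148, and the kB consensus, bound by NF-kB, at positions -73 to -64.
IL6: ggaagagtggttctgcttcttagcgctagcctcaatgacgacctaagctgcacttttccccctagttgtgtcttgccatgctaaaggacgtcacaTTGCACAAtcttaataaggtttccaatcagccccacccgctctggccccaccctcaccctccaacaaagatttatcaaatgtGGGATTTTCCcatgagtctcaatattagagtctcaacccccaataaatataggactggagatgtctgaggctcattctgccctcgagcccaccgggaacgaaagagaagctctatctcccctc
Both strands were searched. The C/EBP motif was in 2.61% and the kB consensus in 5.91% of all 35116 RefSeq windows of this length. A match of letters is a description of the window and not a binding site. The printed windows all hold capitals, while the IL24 window, which is not printed, holds none of the motifs searched. Whether any motif goes with a pattern over the groups was not tested.

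LIF, at chr22:30240447-30246851 on the minus strand with 2 overlapping antisense genes, keeps stem cells undifferentiated and also induces acute-phase genes. It differed by genotype more than by dose. It had 38.2 and 44.4 CPM in irradiated ATM knockdown libraries, 49.0 and 60.0 CPM in untreated ATM knockdown libraries, 10.7 and 8.03 CPM in irradiated WT libraries, and 7.92 and 5.31 CPM in untreated WT libraries. Every ATM knockdown library lay above every WT library. The log2 difference of ATM knockdown from WT was 2.98 (SE 0.37) in untreated cells and 2.07 (SE 0.36) in irradiated cells. Cells with LIF made up 69.8% and 60.0% of irradiated ATM knockdown libraries, 48.5% and 57.5% of untreated ATM knockdown libraries, 30.8% and 15.2% of irradiated WT libraries, and 16.3% and 8.70% of untreated WT libraries. Before thinning, LIF was in 81.4% and 72.1% of irradiated and 46.3% and 68.2% of untreated ATM knockdown cells, and in 33.3% and 25.0% of irradiated and 25.0% and 14.6% of untreated WT cells. In ATM knockdown cells the share was higher and the level lower after irradiation, so no order is read from the share there.

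IL11, a factor for megakaryocytes and stromal cells at chr19:55364389-55370463 on the minus strand, was near the limit of the data. It had 0.656 and 0.309 CPM in irradiated ATM knockdown libraries, 2.75 and 0 CPM in untreated ATM knockdown libraries, 7.72 and 3.51 CPM in irradiated WT libraries, and 5.19 and 5.01 CPM in untreated WT libraries. All 4 WT libraries were above all 4 ATM knockdown libraries, opposite to LIF. In each library with any IL11 count, 1 cell held more than 50% of the counts, from 50.7% to 100%. The log2 difference of ATM knockdown from WT was -1.94 (SE 1.45) in untreated cells and -3.60 (SE 1.56) in irradiated cells, with standard errors too wide to place either. The IL11 window at chr19:55370414-55370713 on the minus strand holds 1 AP-1 motif, TGANTCA, in capitals, a motif found in 7.71% of all windows.
IL11: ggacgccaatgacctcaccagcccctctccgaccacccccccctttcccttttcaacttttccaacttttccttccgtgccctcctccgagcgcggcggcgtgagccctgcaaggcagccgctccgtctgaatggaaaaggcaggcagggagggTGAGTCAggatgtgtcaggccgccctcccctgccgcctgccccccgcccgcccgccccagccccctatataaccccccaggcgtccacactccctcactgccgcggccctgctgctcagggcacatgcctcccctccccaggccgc

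IL24, the IL20-family member, at chr1:206897443-206904139 on the plus strand, had 56.7 and 7.22 CPM in irradiated ATM knockdown libraries, 181 and 58.7 CPM in untreated ATM knockdown libraries, 5.69 and 11.7 CPM in irradiated WT libraries, and 8.62 and 3.30 CPM in untreated WT libraries. The untreated ATM knockdown libraries were the highest, and the lower of them stood just above the higher irradiated one. The log2 difference of ATM knockdown from WT in untreated cells was 4.28 (SE 0.79), and the change after irradiation in ATM knockdown cells was -1.92 (SE 0.71). That change was -4.04 without irradiated ATM knockdown replicate 1, -1.09 without irradiated ATM knockdown replicate 2, -0.88 without untreated ATM knockdown replicate 1 and -2.53 without untreated ATM knockdown replicate 2. It was not called by edgeR's quasi-likelihood test, and was called in 2 of 18 alternatives, without irradiated ATM knockdown replicate 1 and with no filter on low counts. One cell held 52.5% of the IL24 counts of untreated ATM knockdown replicate 1, and without it that library stood at 88.9 CPM. One cell likewise held 46.4% in irradiated ATM knockdown replicate 1, which stood at 31.3 CPM without it. The genotype difference was 3.23 without untreated ATM knockdown replicate 1, 4.88 without untreated ATM knockdown replicate 2 and 5.11 without untreated WT replicate 1. The share of cells was 44.2% and 22.5% in irradiated ATM knockdown libraries, 42.4% and 42.5% in untreated ATM knockdown libraries, 10.3% and 10.9% in irradiated WT libraries, and 18.6% and 17.4% in untreated WT libraries. Unthinned, it was 58.1% and 34.9% in irradiated and 56.1% and 59.1% in untreated ATM knockdown libraries, against 14.6% and 16.7% in irradiated and 27.1% and 35.4% in untreated WT libraries. In ATM knockdown cells the first irradiated library thus had as many IL24 cells as the untreated ones and less IL24 per positive cell, a median thinned count of 1 there against 7.5 and 5 in untreated libraries.

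**Figure D1:**
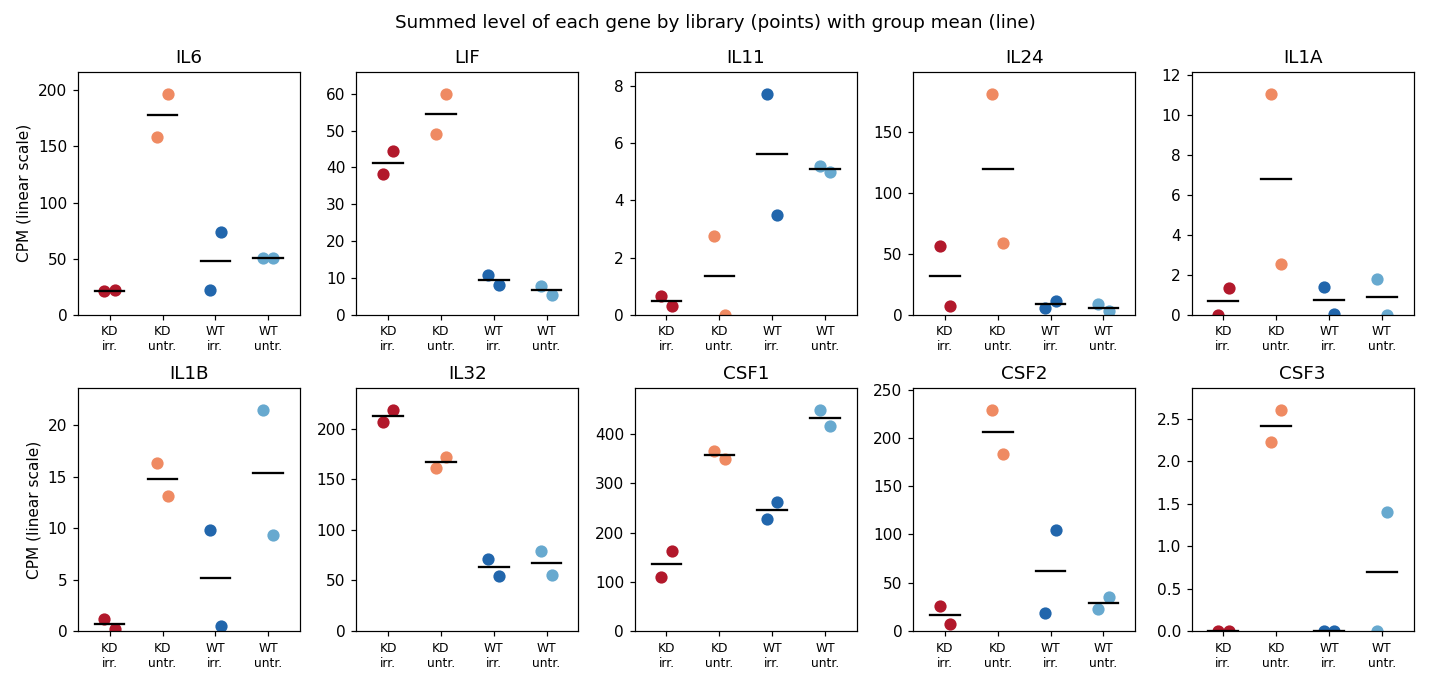
Summed level of each gene in CPM (linear axis, each panel with its own range) in the 8 libraries, as points, with the group mean as a line, for ATM knockdown (KD) and WT cells, irradiated (irr.) and untreated (untr.). IL6 and CSF2 are highest in the 2 untreated ATM knockdown libraries (159 and 197 CPM for IL6), LIF and IL32 are high in all 4 ATM knockdown libraries, and CSF1 is lower in irradiated libraries of both genotypes.

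CSF2 encodes GM-CSF, made by activated cells to recruit and mature myeloid cells, and lies at chr5:132073790-132076170 on the plus strand. Its level was 26.2 and 7.48 CPM in irradiated ATM knockdown libraries, 229 and 184 CPM in untreated ATM knockdown libraries, 18.8 and 105 CPM in irradiated WT libraries, and 23.1 and 34.7 CPM in untreated WT libraries. The untreated ATM knockdown libraries overlapped no other group, and the irradiated WT libraries lay on either side of the untreated WT ones. In log2 units the change after irradiation was -3.61 (SE 0.63) in ATM knockdown cells and 1.12 (SE 0.58) in WT cells, a difference of -4.73 (SE 0.85).

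The WT value for CSF2 rested on 1 cell. That cell held 84.6% of the CSF2 counts of irradiated WT replicate 2, which stood at 16.9 CPM without it. Leaving out the cell with most CSF2 in every library gave a ratio of irradiated to untreated means of 0.797 in WT cells, against 2.13 with it, while the ratio in ATM knockdown cells was 0.0878 against 0.0817. The difference between the genotypes was not refitted without those cells. It was -3.02 without irradiated WT replicate 2, which holds that cell, -5.48 without irradiated WT replicate 1, -5.88 without irradiated ATM knockdown replicate 1 and -4.10 without irradiated ATM knockdown replicate 2. The change in ATM knockdown cells was -4.77 without irradiated ATM knockdown replicate 1 and -2.98 without irradiated ATM knockdown replicate 2. CSF2 was found in 25.6% and 15.0% of cells in irradiated ATM knockdown libraries, 66.7% and 77.5% in untreated ATM knockdown libraries, 23.1% and 39.1% in irradiated WT libraries, and 27.9% and 26.1% in untreated WT libraries. Before thinning the ATM knockdown shares were 46.5% and 23.3% in irradiated and 80.5% and 79.5% in untreated libraries. The WT shares were then 25.0% and 60.4% in irradiated and 62.5% and 47.9% in untreated libraries, so the untreated genotypes lay nearer each other than after thinning. The CSF2 window at chr5:132073539-132073838 on the plus strand holds GAGATTCC, the CK-1 element named after cytokine promoters, in capitals at positions -101 to -94, which 0.869% of all windows hold. A GAS motif, TTCNNNGAA, lies at positions -190 to -182 and is left in lower case, and 7.66% of all windows hold it.
CSF2: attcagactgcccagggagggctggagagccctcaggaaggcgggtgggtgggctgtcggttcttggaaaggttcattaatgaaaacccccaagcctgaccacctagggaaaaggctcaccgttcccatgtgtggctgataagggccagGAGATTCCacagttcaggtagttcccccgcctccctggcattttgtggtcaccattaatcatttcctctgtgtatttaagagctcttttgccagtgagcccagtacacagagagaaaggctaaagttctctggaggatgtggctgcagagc

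CSF1, the growth factor of macrophages, at chr1:109910242-109930992 on the plus strand, was detected in nearly every cell. It had 110 and 163 CPM in irradiated ATM knockdown libraries, 365 and 350 CPM in untreated ATM knockdown libraries, 228 and 263 CPM in irradiated WT libraries, and 449 and 417 CPM in untreated WT libraries. In both genotypes both irradiated libraries lay below both untreated ones. The log2 change was -1.38 (SE 0.19) in ATM knockdown cells and -0.80 (SE 0.18) in WT cells. The WT call did not hold without irradiated WT replicate 1, irradiated WT replicate 2 or untreated WT replicate 1, though the change stayed between -0.89 and -0.70 over all alternatives. The difference between these changes was -0.58 (SE 0.26) and was not called. Its share of cells was 81.4% and 82.5% in irradiated ATM knockdown libraries and 97.0% and 95% in untreated ATM knockdown libraries, against 97.4% and 95.7% in irradiated WT libraries and 100% in both untreated WT libraries. Before thinning every share lay between 93.0% and 100%.

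CSF3 encodes G-CSF, the growth factor of neutrophils, at chr17:40015361-40017813 on the plus strand. It was at 0 in both irradiated ATM knockdown libraries, at 2.22 and 2.60 CPM in untreated ATM knockdown libraries, at 0 in both irradiated WT libraries, and at 0 and 1.40 CPM in untreated WT libraries. Taking 3 counts per library as the floor, irradiated ATM knockdown cells were at least 15.8-fold lower than untreated ATM knockdown cells. One cell held 79.4% of the CSF3 counts in untreated ATM knockdown replicate 1 and another 69.6% in replicate 2, and without those cells the bound was at least 4.22-fold. By the same floor irradiated WT cells were at least 2.96-fold lower than untreated WT cells, although 1 untreated WT library was also at 0 and the untreated WT mean was 0.464 CPM without the cell holding most CSF3. In thinned cells CSF3 was found in 0 of 83 irradiated ATM knockdown cells and 3 of 73 untreated ATM knockdown cells.

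**Figure D2:**
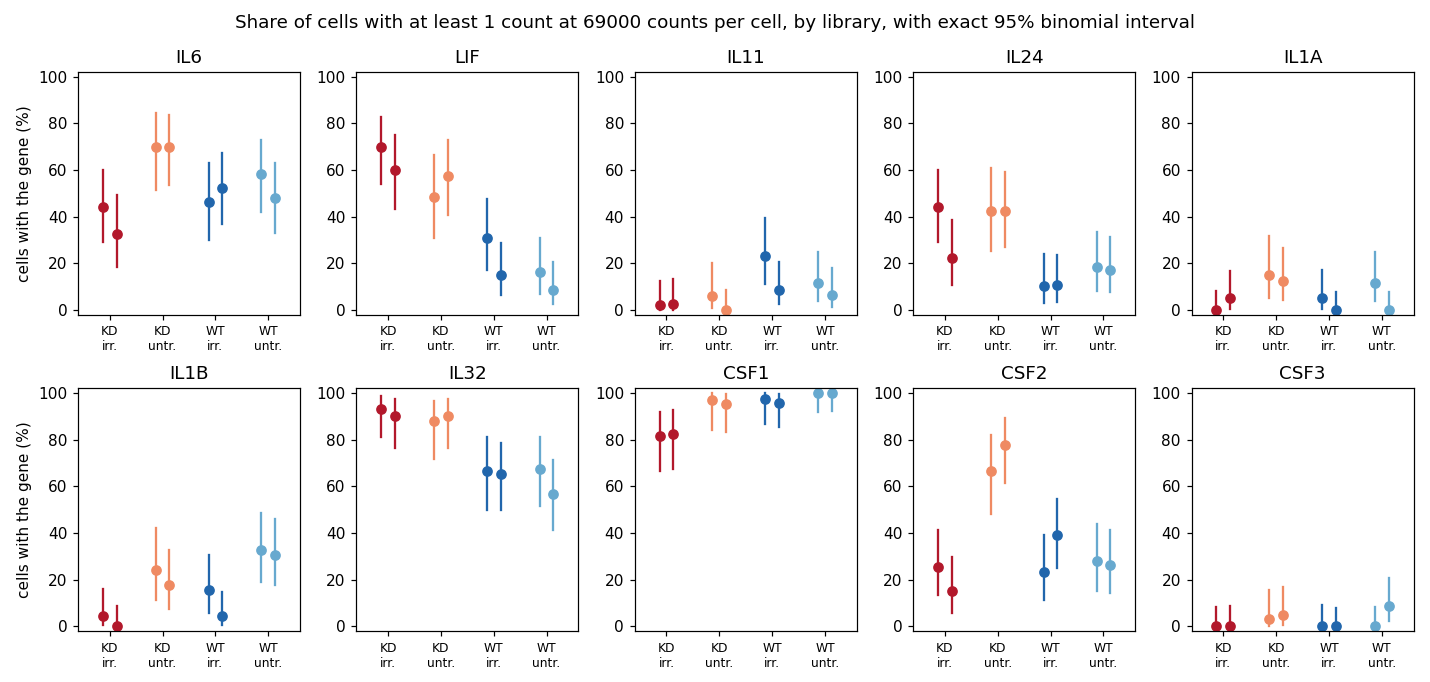
Share of cells with at least 1 count of each gene at 69000 counts per cell (percent, 0 to 100) in each of the 8 libraries, with the exact 95% binomial interval, which covers the sampling of cells within a library only. For CSF2 the intervals of the 2 untreated ATM knockdown libraries (66.7% and 77.5%) lie above those of the irradiated ATM knockdown libraries (25.6% and 15.0%), while the WT libraries overlap.

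The IL-1 genes were found in a minority of cells in every thinned library. IL1B, an inflammatory cytokine released after cleavage by an inflammatory caspase, lies at chr2:112829751-112836903 on the minus strand. It had 1.21 and 0.206 CPM in irradiated ATM knockdown libraries, 16.4 and 13.1 CPM in untreated ATM knockdown libraries, 9.76 and 0.457 CPM in irradiated WT libraries, and 21.4 and 9.31 CPM in untreated WT libraries. Irradiated ATM knockdown libraries lay below untreated ones, and irradiated WT replicate 1 overlapped the untreated WT pair. The log2 change after irradiation was -4.36 (SE 1.13) in ATM knockdown cells and -1.58 (SE 0.99) in WT cells. In ATM knockdown cells it was -6.10 without irradiated ATM knockdown replicate 1 and -3.61 without irradiated ATM knockdown replicate 2. In WT cells it was -5.04 without irradiated WT replicate 1, -0.62 without irradiated WT replicate 2 and -0.89 without untreated WT replicate 1. The ATM knockdown change was not called by the edgeR test used for all genes, and was called in 9 of 17 alternatives, DESeq2 and limma among them. The WT change was called in 1 of 17, without irradiated WT replicate 1. Cells with IL1B made up 4.65% and 0% of irradiated ATM knockdown libraries, 24.2% and 17.5% of untreated ATM knockdown libraries, 15.4% and 4.35% of irradiated WT libraries, and 32.6% and 30.4% of untreated WT libraries. In both genotypes the irradiated libraries had fewer such cells than the untreated ones. Before thinning, IL1B was in 4.65% and 2.33% of irradiated and 22.0% and 27.3% of untreated ATM knockdown cells, and in 20.8% and 4.17% of irradiated and 60.4% and 45.8% of untreated WT cells.

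IL1A, which is active without cleavage and is also found in the nucleus, lies at chr2:112773915-112784590 on the minus strand. It had 0 and 1.34 CPM in irradiated ATM knockdown libraries, 11.1 and 2.55 CPM in untreated ATM knockdown libraries, 1.39 and 0.0508 CPM in irradiated WT libraries, and 1.77 and 0 CPM in untreated WT libraries. The untreated ATM knockdown libraries stood above the other 6, and they differed widely from each other. Cells with IL1A numbered 2 of 83 in irradiated ATM knockdown cells, 10 of 73 in untreated ATM knockdown cells, 2 of 85 in irradiated WT cells and 5 of 89 in untreated WT cells.

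IL32, at chr16:3065297-3082192 on the plus strand with the small nuclear RNA gene RNU1-125P in its exons, was found in most cells of every library. It had 207 and 218 CPM in irradiated ATM knockdown libraries, 161 and 172 CPM in untreated ATM knockdown libraries, 71.0 and 54.7 CPM in irradiated WT libraries, and 78.7 and 55.6 CPM in untreated WT libraries. Every ATM knockdown library was above every WT library, and within ATM knockdown cells the irradiated libraries were the higher. The log2 difference of ATM knockdown from WT was 1.69 (SE 0.21) in irradiated cells and 1.26 (SE 0.21) in untreated cells, and the change after irradiation was 0.36 (SE 0.21) in ATM knockdown cells and -0.07 (SE 0.21) in WT cells. IL32 was in 93.0% and 90.0% of cells in irradiated ATM knockdown libraries, 87.9% and 90.0% in untreated ATM knockdown libraries, 66.7% and 65.2% in irradiated WT libraries, and 67.4% and 56.5% in untreated WT libraries. Unthinned, the 4 ATM knockdown shares ran from 85.4% to 100% and the 4 WT shares from 68.8% to 83.3%. The first of its 2 windows, chr16:3065153-3065452 on the plus strand, holds in capitals a CRE, TGACGTCA, at positions -121 to -114, which 1.85% of windows hold. A kB consensus on the plus strand at positions -99 to -90 overlaps one on the minus strand at positions -98 to -89.
IL32: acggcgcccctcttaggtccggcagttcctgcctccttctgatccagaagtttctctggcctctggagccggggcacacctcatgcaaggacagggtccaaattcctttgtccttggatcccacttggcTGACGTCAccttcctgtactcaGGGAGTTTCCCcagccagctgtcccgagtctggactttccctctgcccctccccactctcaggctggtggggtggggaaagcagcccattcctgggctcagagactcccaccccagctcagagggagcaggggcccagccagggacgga
The windows of IL6 and IL32 thus both hold the kB consensus, and its part in their levels was not tested.

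**Figure D3:**
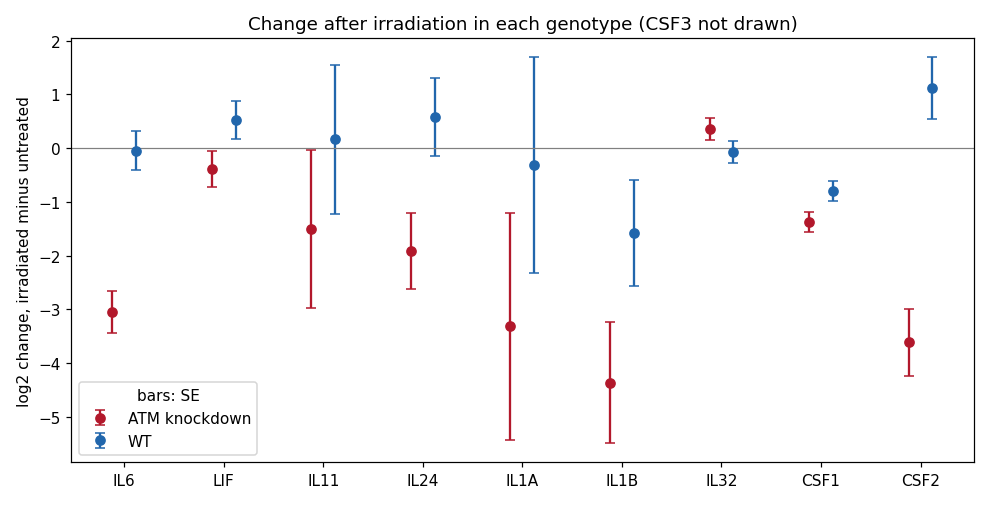
Change after irradiation (log2, irradiated minus untreated) in ATM knockdown and WT cells for 9 genes, with SE as bars, from 1 fit over all genes. IL6 (-3.05) and CSF2 (-3.61) lie far below 0 in ATM knockdown cells and not in WT cells (-0.05 and 1.12), CSF1 is lower in both genotypes, and the bars of IL11 and IL1A are wide.

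The 10 genes were set beside all 12456 genes tested with edgeR's quasi-likelihood test, in which a gene is called at a Benjamini-Hochberg adjusted p under 0.05. All 10 passed the filter on low counts, CSF3 by way of the untreated libraries in which it was detected. After irradiation of ATM knockdown cells, IL6, CSF2 and CSF1 were called, all lower, with 0.225% of all genes called in either direction. The median log2 change of the 10 genes was -2.48, against 0.01 over all genes. That median includes CSF3, which was at 0 in both irradiated libraries and could not have been higher there. It also includes IL11 and IL1A, whose changes had SE of 1.47 and 2.12. In WT cells CSF1 alone was called, with 1.65% of all genes called, and the median was -0.06, against -0.01. For the difference between the genotypes in the response to irradiation, IL6 and CSF2 were called, with 0.185% of all genes called. Between untreated ATM knockdown and WT cells, IL6, LIF, IL24, IL32 and CSF2 were called higher, with 9.94% of all genes called. Between irradiated ATM knockdown and WT cells, IL32 and LIF were called higher and CSF1 lower, with 5.1% of all genes called, and CSF1 was not called without irradiated ATM knockdown replicate 1, with a difference between -1.24 and -0.64 over its alternatives. These contrasts share libraries, and the genes were selected on such values, so nothing is read from these counts and medians beyond their size.

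Libraries that did not overlap were common with 2 per group. Both irradiated ATM knockdown libraries were below both untreated ones for 8 of the 10 genes, the exceptions being IL11 and IL32. The same held for 19.1% of all genes tested. CSF3 is among the 8, but it passed the filter by way of untreated libraries and could not have been higher in irradiated ones. Both untreated ATM knockdown libraries were above both untreated WT libraries for 7 of the 10 genes and for 27.5% of all genes tested. IL11, IL1B and CSF1 were the exceptions. CSF3 was among the 7, but without the cell holding most CSF3 in each library its untreated genotypes overlapped, with a ratio of means of 1.39. The labels do not say whether libraries of the same group are separate cultures, so the spread between them may be technical.

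Single cells often held several of these transcripts. The mean number of the 10 genes detected per thinned cell was 3.65 and 3.10 in irradiated ATM knockdown libraries, 4.61 and 4.68 in untreated ATM knockdown libraries, 3.18 and 2.91 in irradiated WT libraries, and 3.44 and 3.02 in untreated WT libraries. Cells with 5 or more made up 18.6% and 12.5% in irradiated ATM knockdown libraries, 54.5% and 47.5% in untreated ATM knockdown libraries, 17.9% and 10.9% in irradiated WT libraries, and 20.9% and 10.9% in untreated WT libraries. The untreated ATM knockdown libraries stood above all others on both measures. No cell lacked all 10.

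Most pairs of these genes met in the same cell about as often as, or slightly more often than, their shares alone would give. Of the 45 pairs, 33 had at least 5 cells expected with both, from the product of the shares within each library. Of these, 29 were seen more often than expected, and the median ratio over the 33 was 1.05. Pairs with a gene found in nearly every cell stay near 1, as IL6 with CSF1, at 163 cells against 162.6 expected. Pairs of other genes were not counted, so the 29 cannot be set beside a share over all genes. IL6 and CSF2 were found together in 78 cells against 70.1 expected, and IL6 and LIF in 73 against 63.5. LIF and IL11 had the highest ratio, 1.49, with 10 cells against 6.72. IL24 and CSF2 had the lowest ratio, 0.919, with 33 cells against 35.9. Across the 330 thinned cells the highest correlation of log2 counts within libraries among the pairs was 0.13, for IL6 with CSF2. The cells share library and depth. In untreated ATM knockdown cells, IL6 was in 74.5% of 51 cells with the chemokine transcript CXCL8 and in 59.1% of 22 cells without it, and IL1B was in 27.5% of those with CXCL8 and 4.55% of those without it. LIF and IL24 ran the other way in the same group, LIF in 47.1% of cells with CXCL8 and 68.2% without it, and IL24 in 37.3% with it and 54.5% without it. In untreated WT cells IL6 was in 68.8% of 32 cells with CXCL8 and in 43.9% of 57 cells without it. LIF was there in 18.8% with CXCL8 and 8.77% without it, opposite to untreated ATM knockdown cells, and IL24 in 15.6% and 19.3%. These shares pool the libraries of a group. From shares within each untreated ATM knockdown library, CXCL8 met IL6 in 38 cells against 35.6 expected and LIF in 24 against 27.6. It met IL1B in 14 against 10.2 and IL24 in 19 against 21.7.

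**Figure D4:**
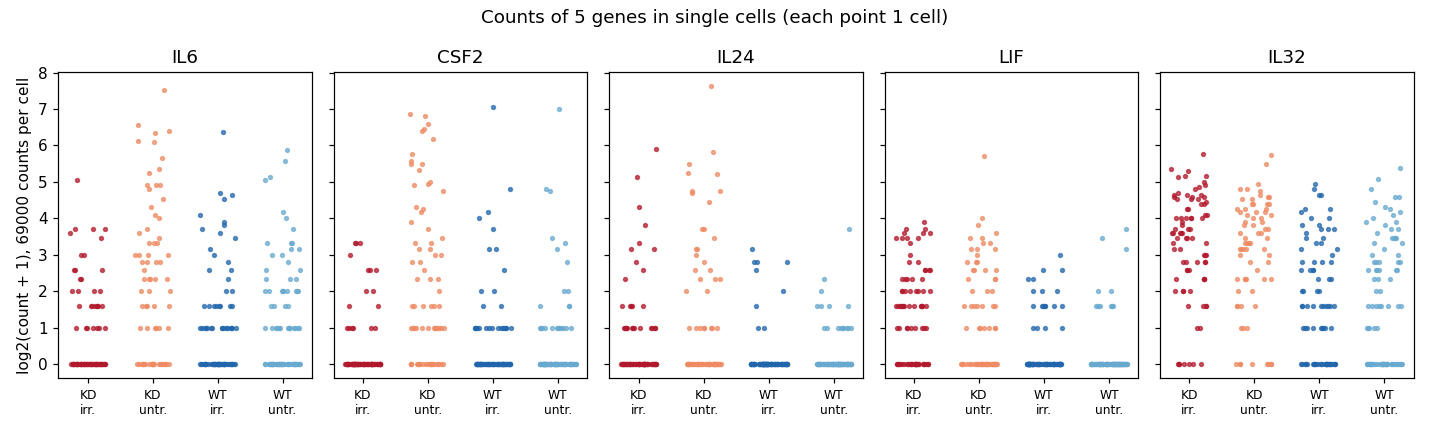
Counts of 5 genes in each thinned cell, as log2(count + 1) at 69000 counts per cell, by group, with libraries of a group shown together. Untreated ATM knockdown cells have the most cells with high IL6 and CSF2, single cells carry much of the CSF2 in WT groups, and IL32 is spread over most ATM knockdown cells.

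Genes nearest in profile to each of the 10 over the 8 libraries were sought among 8707 genes. The measure was the root mean square difference of log2(CPM + 1) values centred on each gene's mean. By that measure the gene's own profile spread by 1.17 for IL6, 1.58 for CSF2, 1.79 for IL24, 1.60 for IL1B and 1.14 for IL1A. It spread by 1.26 for LIF, 1.09 for IL11, 0.794 for IL32, 0.660 for CSF1 and 0.790 for CSF3. Nearest is thus a rank and for several genes not a close match. The 3 nearest to IL6 were BIRC3, an inhibitor of apoptosis and NF-kB target (0.47), DDIT4 (0.67) and WDR19 (0.67). Nearest to CSF2 were BIRC3 (0.80), the chemokine CXCL2 (0.93) and POU2F2 (0.96), so BIRC3 led both lists. For LIF they were PRELID1, ENTPD6 and LCN2 (0.24 to 0.33), for IL11 NINJ2, LAPTM5 and PHYHD1 (0.30 to 0.37), and for IL24 POU2F2, LCN2 and G0S2 (0.90 to 0.98). IL1A was nearest to SAMD10, SH3RF3 and MAP3K5 (0.58 to 0.63) and IL1B to KIF20A, ZC3H12A and IGFBP3 (0.77 to 0.92). IL32 was nearest to MFSD12, CLMP and OXCT1 (0.10 to 0.13), CSF1 to HINT3, MAFF and BFSP1 (0.20 to 0.22), and CSF3 to the NF-kB subunit NFKB2, SMAD3 and PITPNM3 (0.32 to 0.39).

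Receptors for these factors were present for only some of them. The shared chain IL6ST had 159 and 155 CPM in irradiated ATM knockdown libraries, 205 and 184 CPM in untreated ATM knockdown libraries, 162 and 247 CPM in irradiated WT libraries, and 278 and 252 CPM in untreated WT libraries. IL6R, the chain that binds IL6 itself, had 1.56 and 8.10 CPM in irradiated ATM knockdown libraries, 0 and 0.170 CPM in untreated ATM knockdown libraries, 0 in both irradiated WT libraries, and 0 and 0.0501 CPM in untreated WT libraries. The IL-1 receptor chain IL1R1 was between 9.59 and 34.7 CPM in all 8 libraries, and its partner IL1RAP between 5.52 and 26.8 CPM. CSF1R was between 1.24 and 8.51 CPM. OSMR, which pairs with IL6ST to bind oncostatin M, was between 91.5 and 176 CPM, while the IL11-binding chain IL11RA and the IL24 receptor chain IL20RB stayed under 4 CPM in every library. The receptors of CSF2 and CSF3, CSF2RA, CSF2RB and CSF3R, were at or near 0 and were not tested. Of 20 receptor genes, 14 were tested. By edgeR's quasi-likelihood test 1 was called, LIFR, the LIF-binding chain, and only between untreated genotypes, where DESeq2 called 3 receptors and limma 2. In the other 4 contrasts DESeq2 called 0 or 1 and limma 0 or 1. LIFR had 24.7 and 21.6 CPM in untreated ATM knockdown libraries and 44.0 and 53.7 CPM in untreated WT libraries. By edgeR's quasi-likelihood test with Benjamini-Hochberg adjustment LIFR was lower in untreated ATM knockdown cells, with a log2 difference of -1.14 (SE 0.34) and adjusted p = 0.0462. That call was lost in 5 of 18 alternatives, without untreated WT replicate 2 and without either untreated ATM knockdown library, where the log2 difference was between -1.25 and -0.97, with no scaling beyond the library total and in the compared groups alone.

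None of 22 JAK-STAT genes was called in any contrast by edgeR's quasi-likelihood test. After irradiation 0 of them in ATM knockdown cells and 4 in WT cells had an unadjusted p under 0.05, and between ATM knockdown and WT 3 did in irradiated and 3 in untreated cells. DESeq2 called 0 after irradiation in ATM knockdown cells and 1 in WT cells, and between genotypes 1 in irradiated and 0 in untreated cells, while limma called 1, after irradiation in WT cells. STAT3 had 123 and 143 CPM in irradiated ATM knockdown libraries and 155 and 159 CPM in untreated ones. Its feedback inhibitor SOCS3 had 12.3 and 14.2 CPM in irradiated ATM knockdown libraries and 11 and 17.0 CPM in untreated ones. Of 10 other ligands of the IL6 and IL20 families 3 were tested and 0 called by edgeR, DESeq2 or limma, and 1 at an unadjusted p under 0.05 in edgeR between irradiated genotypes. Of these ligands CTF1 and EBI3 reached at most 14.2 and 7.57 CPM, and CLCF1 was at 48.9 and 32.5 CPM in irradiated ATM knockdown libraries and 26.4 and 38.6 CPM in untreated ones. Of 19 other interleukins and growth factors 8 were tested, and IL18, an IL-1 family cytokine, was lower in untreated ATM knockdown cells, at 8.83 and 9.91 CPM against 26.2 and 35.8 CPM in untreated WT cells. Its log2 difference was -1.78 (SE 0.43) with adjusted p = 0.0157 by edgeR's quasi-likelihood test, and the call was lost without untreated WT replicate 2, where the difference was -1.53, without the largest cells (-1.26) and by limma.

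In the IL-1 pathway 24 genes were tested and 3 were called between untreated genotypes. IRAK1, a kinase that carries the receptor signal, had 167 and 182 CPM in untreated ATM knockdown libraries and 80.0 and 69.6 CPM in untreated WT libraries. By edgeR's quasi-likelihood test IRAK1 was higher by a log2 difference of 1.17 (SE 0.18) with adjusted p = 0.000753. MAP3K8, a kinase that activates ERK signalling downstream of the IL-1 receptor, had 43.6 and 16.7 CPM in untreated ATM knockdown libraries and 5.61 and 3.70 CPM in untreated WT libraries, a log2 difference of 2.64 (SE 0.57) with adjusted p = 0.00842 by edgeR's quasi-likelihood test. That call was lost without untreated ATM knockdown replicate 1, where the log2 difference was 1.78, and without the largest cells (2.13). S100A13, a calcium-binding protein that takes part in the release of IL1A, ran the other way. It had 33.0 and 37.4 CPM in irradiated ATM knockdown libraries, 24.2 and 26.7 CPM in untreated ATM knockdown libraries, 84.6 and 101 CPM in irradiated WT libraries, and 88.3 and 110 CPM in untreated WT libraries. Its log2 difference from WT was -1.47 (SE 0.24) in irradiated and -2.02 (SE 0.24) in untreated ATM knockdown cells, with adjusted p = 0.00246 and adjusted p = 0.000124 by edgeR's quasi-likelihood test. In WT cells IRAK1 rose after irradiation by a log2 change of 0.79 (SE 0.18), with adjusted p = 0.0376 by edgeR's quasi-likelihood test, a call lost without any one of the 4 WT libraries, where the change was between 0.71 and 0.87, without the largest cells (0.66), by limma and in the compared groups alone.

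Among 16 tested genes for the decay and stability of cytokine mRNA, the RNase ZC3H12A, known to degrade IL6 mRNA, was called in 4 of the 5 contrasts. It had 2.17 and 2.06 CPM in irradiated ATM knockdown libraries, 46.5 and 49.8 CPM in untreated ATM knockdown libraries, 7.62 and 6.71 CPM in irradiated WT libraries, and 22.3 and 13.3 CPM in untreated WT libraries. The untreated ATM knockdown libraries were the highest and the irradiated ATM knockdown libraries the lowest, with no overlap between groups. By edgeR's quasi-likelihood test ZC3H12A fell after irradiation in ATM knockdown cells by 4.50 on the log2 scale (SE 0.46, adjusted p = 0.000357), and this call was kept in all 17 alternatives. Its change in WT cells was -1.29 (SE 0.40) with adjusted p = 0.137 by the same edgeR test. The difference between the responses was -3.21 (SE 0.58) with adjusted p = 0.0367 by edgeR's quasi-likelihood test, kept in 13 of 16 alternatives and lost without irradiated ATM knockdown replicate 2 (-3.19) and without the largest cells (-2.05), and by limma, with adjusted p between 0.000124 and 0.467 over its alternatives. In the same edgeR test ZC3H12A was higher in untreated ATM knockdown than in untreated WT cells by 1.38 on the log2 scale (SE 0.40, adjusted p = 0.0370), a call lost without either untreated ATM knockdown library (1.42 and 1.35) or untreated WT replicate 2 (1.07), without the largest cells (0.72), by limma and in the compared groups alone. It was lower in irradiated ATM knockdown than in irradiated WT cells by a log2 difference of -1.82 (SE 0.42, adjusted p = 0.0213, edgeR's quasi-likelihood test), a call lost without either irradiated ATM knockdown library (-1.84 and -1.80) or irradiated WT replicate 1 (-1.72), without the largest cells (-1.33) and in the compared groups alone.

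ZFP36, which encodes tristetraprolin and binds AU-rich elements, had 18.0 and 27.7 CPM in irradiated ATM knockdown libraries and 41.7 and 44.8 CPM in untreated ones, and its log2 change of -0.91 (SE 0.37) had adjusted p = 0.474 by edgeR's quasi-likelihood test. Its relative ZFP36L1 had 90.7 and 157 CPM in irradiated WT libraries and 244 and 263 CPM in untreated WT libraries, and it fell by 1.01 on the log2 scale (SE 0.23, adjusted p = 0.0420, edgeR's quasi-likelihood test), which was lost without irradiated WT replicate 1, where the change was -0.69, without the largest cells (-0.95) and in a fit of the compared groups alone.

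Of 17 transcription factors that act on cytokine promoters, CEBPD and IRF1 fell after irradiation in ATM knockdown cells. CEBPD, a C/EBP family member, had 22.0 and 19.8 CPM in irradiated and 68.7 and 79.4 CPM in untreated ATM knockdown libraries, against 60.3 and 61.0 CPM in irradiated and 151 and 72.8 CPM in untreated WT libraries. By edgeR's quasi-likelihood test its log2 change in ATM knockdown cells was -1.82 (SE 0.30, adjusted p = 0.0121). IRF1, an interferon-regulated factor, had 17.3 and 11 CPM in irradiated and 42.5 and 58.4 CPM in untreated ATM knockdown libraries, against 57.5 and 50.4 CPM in irradiated and 54.5 and 84.3 CPM in untreated WT libraries. By edgeR's quasi-likelihood test its log2 change in ATM knockdown cells was -1.83 (SE 0.32, adjusted p = 0.0184), a call lost without irradiated ATM knockdown replicate 2, where the change was -1.55, and by limma. For neither was the difference between the genotypes in that response called, with adjusted p = 0.466 for CEBPD and 0.270 for IRF1 by edgeR's quasi-likelihood test. Between irradiated ATM knockdown and irradiated WT cells both were lower in ATM knockdown, by 1.61 (SE 0.30, adjusted p = 0.00518) for CEBPD and 2.00 (SE 0.32, adjusted p = 0.00214) for IRF1 on the log2 scale in edgeR's quasi-likelihood test. CEBPG, another C/EBP member, had 81.4 and 57.4 CPM in untreated ATM knockdown libraries and 22.9 and 18.0 CPM in untreated WT libraries, a log2 difference of 1.71 (SE 0.28) with adjusted p = 0.00115 by edgeR's quasi-likelihood test. In WT cells CEBPG had 46.1 and 50.2 CPM in irradiated libraries against 22.9 and 18.0 CPM in untreated ones, a log2 change of 1.26 (SE 0.28) with adjusted p = 0.0353 by edgeR's quasi-likelihood test, lost without either irradiated WT library or untreated WT replicate 2, where the change was between 1.11 and 1.30, without the largest cells (0.88), by limma and in the compared groups alone.

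**Figure D5:**
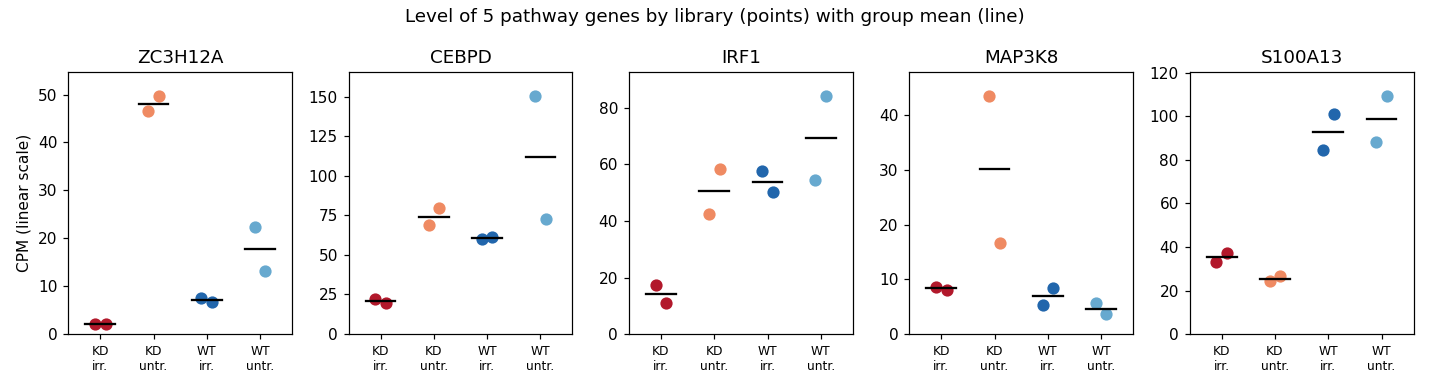
Level in CPM (linear axis, each panel with its own range) of 5 genes related to cytokine expression in the 8 libraries, as points, with the group mean as a line. ZC3H12A, CEBPD and IRF1 are lowest in irradiated ATM knockdown libraries, MAP3K8 is highest in untreated ATM knockdown libraries, and S100A13 is low in all 4 ATM knockdown libraries.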

How the data were processed

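Per the submitters' processing notes, the authors used Trimmomatic 0.36, HISAT2 2.1.0 and HTSeq 0.9.1 with the build hg38, and they deposited whole-number counts per coding gene and cell. Single cells were picked by hand, and a modified Smart-seq2 protocol gave libraries of 3' ends. Whether counts are reads or molecules, and whether counting used strand, is not given in the sources used here. A gene with no row in a table was taken as 0.

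Cells with at least 1000 genes and 5000 counts were kept and their counts summed per library, so that cells with more counts weigh more. edgeR 4.0.16 (filterByExpr, TMM, quasi-likelihood test, 4 groups in 1 fit, Benjamini-Hochberg adjustment over 12456 genes, threshold 0.05) gave log2 changes and SE, with a common biological coefficient of variation of 0.458 and 4 residual degrees of freedom, and was tested on simulated data. Shares used counts thinned at random to 69000 per cell (fixed seed), a count of at least 1 and exact binomial intervals. Floors were 3 counts per library, and intervals and floors cover sampling of cells or counts only. The edgeR p-values set a difference against the spread between libraries of the same group, 2 per group. That spread was estimated over all 4 groups in 1 fit, with information shared across genes.

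The 10 genes, the gene lists and the tests were chosen with earlier results of these data known. All 10 genes were named, together with list genes past the threshold in any contrast, fixed receptors and regulators, and the 3 genes most like each member (average log2 CPM 3 or above). CXCL8, CLCF1 and ATM are named besides. Alternatives were other scalings, filters, cell sets and tools (DESeq2 1.42.0, limma 3.58.1), and each library left out. Leaving out the cell with most counts of a gene was added after the data were seen. R 4.3.3, Python 3.11.15, numpy 2.4.6, pandas 2.3.3, scipy 1.17.1 and matplotlib 3.10.9 were used.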

Additional observations from a re-analysis of the deposited data

Results flagged for a closer look

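The fitted response to irradiation differed widely between the genotypes for 3 of the genes described. For IL6 the difference, ATM knockdown minus WT, was -3.0 on the log2 scale. For CSF2 it was -4.73, and the WT side of that value rested on 1 cell of irradiated WT replicate 2. IL6 and CSF2 were selected with such values known, so for both the difference is a description and the flag is not support for it. For ZC3H12A, which is not among the 10 genes, the difference was -3.21 and passed the test of that difference in edgeR's quasi-likelihood fit, which held in 13 of 16 alternatives.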

How the results depend on the processing

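No paired analysis was possible because the labels give no replicate numbers, and the numbers used here follow accession order. No called change turned its direction in the alternatives run. Of the 10 genes, those called after irradiation in WT cells numbered 1 (CSF1), 2 with no filter on low counts, and 0 in a fit of the compared groups alone or without cells above 2 times the median total, and 0 to 2 with a library left out. In ATM knockdown cells 3 were called, 5 with no filter, and 3 to 4 with a library left out. For the difference between these responses 2 were called, 1 by DESeq2's Wald test (IL6) and 1 by limma on mean CPM per cell (CSF2), and 2 to 3 with a library left out. Between irradiated genotypes 3 were called, 7 with no filter, 5 by DESeq2, 5 without the largest cells, and 3 to 7 with a library left out. Between untreated genotypes 5 were called, with 5 to 6 when a library was left out.

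Of the listed pathway genes, those called in irradiated WT cells numbered 3, 6 by DESeq2, 0 in the compared groups alone, 1 without the largest cells, and 0 to 3 with a library left out. In irradiated ATM knockdown cells they numbered 3, 5 with no filter, 5 by DESeq2, and 2 to 4 with a library left out. For the difference between responses 1 was called, ZC3H12A, with 6 under no filter, 2 by DESeq2, 0 by limma and 0 without the largest cells. With a library left out 0 to 2 were called. At an average log2 CPM of at least 5 the number was 0, but ZC3H12A did not pass that filter and was not tested. Between untreated genotypes 7 were called, 11 with no filter, 13 by DESeq2 and 5 to 9 with a library left out. Between irradiated genotypes 4 were called, 7 with no filter, 11 by DESeq2 and 3 to 6 with a library left out.

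The mean number of the 10 genes per cell changed after irradiation by -0.19 in WT cells, by -0.97 in unthinned counts, and by -0.40 to 0.02 with a library left out, so its sign was not stable. The difference of untreated ATM knockdown from WT was 1.41, and 0.52 in unthinned counts. The median ratio of pairs to expectation was 1.05 in thinned, 1.09 in unthinned and 1.06 at 5 counts or more. Where a call was lost or gained, the cause was not tested. IL11, IL1A and CSF3 were at 0 counts in at least 1 library, and 2 libraries a group limit every call.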
